A study of Homo sapiens with 9 samples.

Results

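The genes described here are 6 metallothioneins (MT2A, MT1E, MT1X, MT1F, MT1M and MT1G), the transcription factor MTF1 and the zinc exporter SLC30A1, which are 8 of the 60664 genes listed in the count files. They were chosen by symbol as metallothionein and zinc response genes, with earlier results of these data known. Of the 8, 7 passed the filter on low counts that left 18264 genes to test. MT1A, a metallothionein outside this set, is described separately. RNA was sequenced from MDA-MB-231 cells, an established triple-negative breast cancer cell line with a mesenchymal-like phenotype, kept for 6 days in medium of low (0.77 cP) or high (8 cP) viscosity. The 3 groups, of 3 samples each, were cells with a scramble hairpin (SC) in 0.77 cP medium, SC cells in 8 cP medium, and cells with a stable hairpin against the calcium channel gene TRPV4 (shTRPV4) in 8 cP medium. All groups carried a lentiviral pLKO.1-puro construct. The paper made viscous media mainly with the polymer methylcellulose, and its RNA sequencing methods do not name the additive. Since shTRPV4 cells at 0.77 cP were not analysed here, the hairpin was compared at 8 cP, and the comparison of shTRPV4 cells at 8 cP with SC cells at 0.77 cP changes the hairpin and the viscosity together. The scramble cells at 8 cP enter 2 of the comparisons and the scramble cells at 0.77 cP enter 2, so the comparisons share samples and are not independent of each other.

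Metallothioneins are small, cysteine-rich proteins that bind zinc and copper, buffer the free metal in the cytosol and protect cells from cadmium and oxidants. When free zinc rises, the zinc-finger protein MTF1 binds metal response elements in the promoters of metallothionein genes and of SLC30A1, whose product ZnT1 pumps zinc out across the plasma membrane. Metallothionein genes also respond to glucocorticoids and to oxidative stress, so transcripts of those responses and of other zinc and copper transporters were counted beside the members.

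The samples held 64571681 to 103518036 counts, and SC replicate 2 at 0.77 cP was the shallowest. TRPV4 had 40, 28 and 54 counts in SC cells at 0.77 cP, 64, 45 and 24 in SC cells at 8 cP, and 7, 1 and 13 in shTRPV4 cells. The knockdown samples lay below all SC samples, with a log2 fold change of -2.51 ± 0.49 (SE) against SC cells at 8 cP (adjusted p = 0.00219, from the quasi-likelihood test of edgeR after Benjamini-Hochberg adjustment). Of the markers set for the cell line, ESR1 and PGR had at most 4 counts and CDH1 at most 12, whereas the epithelial gene EPCAM was present, so that this list of 4 summed to 17.0 to 19.5 CPM (counts divided by the library size after TMM scaling). The 5 genes that mark the line, VIM, CD44, FN1, AXL and LGALS1, summed to a range from 5298 to 5471 CPM in SC cells at 0.77 cP, from 5026 to 5166 at 8 cP and from 4268 to 4402 in shTRPV4 cells. They did not move together. The means of VIM, FN1 and LGALS1 fell over the groups in this order, while CD44 rose (774, 842 and 882 CPM). AXL stood at 1217, 1422 and 1148 CPM. Of the leukocyte markers CD3E had at most 6 counts, and PTPRC, CD3E and CD14, mostly CD14, summed to 5.41 to 6.50, 3.88 to 4.66 and 3.09 to 4.20 CPM in the same order of groups. The means of PTPRC, 0.0990, 0.147 and 0.121 CPM, did not follow that fall. Of the fibroblast markers DCN and PDGFRA had at most 3 counts, and the list of 4, mostly COL1A2, summed to 32.3 to 40.0, 20.6 to 24.5 and 17.7 to 20.8 CPM. These sums moved with the groups and their part in the results was not tested. In bulk RNA, fewer cells that express a gene and less RNA per cell cannot be told apart, and since the sources used here do not say whether the samples came from separate cultures, the p-values measure only the spread between these samples.

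The 6 metallothionein members lie within 75.61 kb on chromosome 16 (GRCh38, 56608584 to 56684196), between MT2A at 1 end and MT1X at the other. MT1G is on the minus strand and the others are on the plus strand. MTF1 (chromosome 1, 37809574 to 37859592, minus strand, 11 exons in the annotated main transcript) and SLC30A1 (chromosome 1, 211571568 to 211579161, minus strand, 2 exons) lie outside the cluster. In the bases just before the transcription start, the MT2A, MT1X and SLC30A1 promoters of RefSeq are shown because they are members with a level high enough to compare and at least 1 match to the core of the metal response element, the motif that MTF1 binds. Each run is the 250 bases before the start, 5′ to 3′ on the strand of the gene, with matches to TGCACNC or TGCGCNC on either strand in capitals.
MT2A (GRCh38.p14, chr16:56608334-56608583, plus strand): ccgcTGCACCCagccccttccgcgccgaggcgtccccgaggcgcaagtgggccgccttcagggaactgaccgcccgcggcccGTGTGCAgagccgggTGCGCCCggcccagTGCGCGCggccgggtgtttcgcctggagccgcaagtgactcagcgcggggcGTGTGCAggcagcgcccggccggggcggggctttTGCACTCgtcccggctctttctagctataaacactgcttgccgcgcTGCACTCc
MT1X (GRCh38.p14, chr16:56682220-56682469, plus strand): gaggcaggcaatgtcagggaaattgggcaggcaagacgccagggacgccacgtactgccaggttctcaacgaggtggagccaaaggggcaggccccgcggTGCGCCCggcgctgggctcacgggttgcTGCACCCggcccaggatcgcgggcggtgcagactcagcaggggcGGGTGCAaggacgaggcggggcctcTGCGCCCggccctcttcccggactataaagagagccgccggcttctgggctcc
SLC30A1 (GRCh38.p14, chr1:211579162-211579411, minus strand): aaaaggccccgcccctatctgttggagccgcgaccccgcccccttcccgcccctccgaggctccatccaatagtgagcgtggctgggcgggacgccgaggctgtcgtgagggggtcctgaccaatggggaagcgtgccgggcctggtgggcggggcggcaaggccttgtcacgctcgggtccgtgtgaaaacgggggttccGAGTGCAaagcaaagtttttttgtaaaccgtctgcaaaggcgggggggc
The MT2A window held 7 matches, from base -246 to base -2, and 11 of the 35116 windows of that length (0.0313%) held at least as many. The MT1X window held 4, of which the nearest began 53 bases before the start, and 0.37% of windows held as many. The SLC30A1 window held 1 match, on the other strand, as did 24.8% of windows (at least 1), and the MTF1 window (chr1:37859593-37859842, minus strand) held 0. MT1E, MT1F, MT1G and MT1M had no promoter window in the reference table used. Outside the members, the window of MT1H held 8 matches (0.0171% of windows held at least as many) and that of MT1B held 3. Both of these genes of the cluster had 0 counts in all 9 samples. These are matches of letters, not sites shown to be bound.

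MT2A was by far the most abundant of the members in each group. Per kb of annotated main transcript in SC cells at 0.77 cP it stood at 1312.5 ± 57.8 CPM (SD over 3 samples), followed by MT1E at 275 ± 9.37, MT1X at 29.7 ± 2.58, SLC30A1 at 12.7 ± 0.689, MT1F at 10.7 ± 0.904, MTF1 at 3.15 ± 0.109 and MT1M at 1.15 ± 0.480, with MT1G last at 0.0127 ± 0.0220. Neighbors in this order were separate over the 3 samples. The ranges of SLC30A1 (12 to 13.4) and MT1F (10.0 to 11.7) came closest in SC cells at 0.77 cP and overlapped in shTRPV4 cells (11.0 to 12.3 and 9.25 to 13.2). The lower part of the order depends on the length used, since over all annotated exons MT1X (6.94 CPM per kb) fell below SLC30A1 (12.7) and MT1F (2.46) below MTF1 (3.13).

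**Figure D1:**
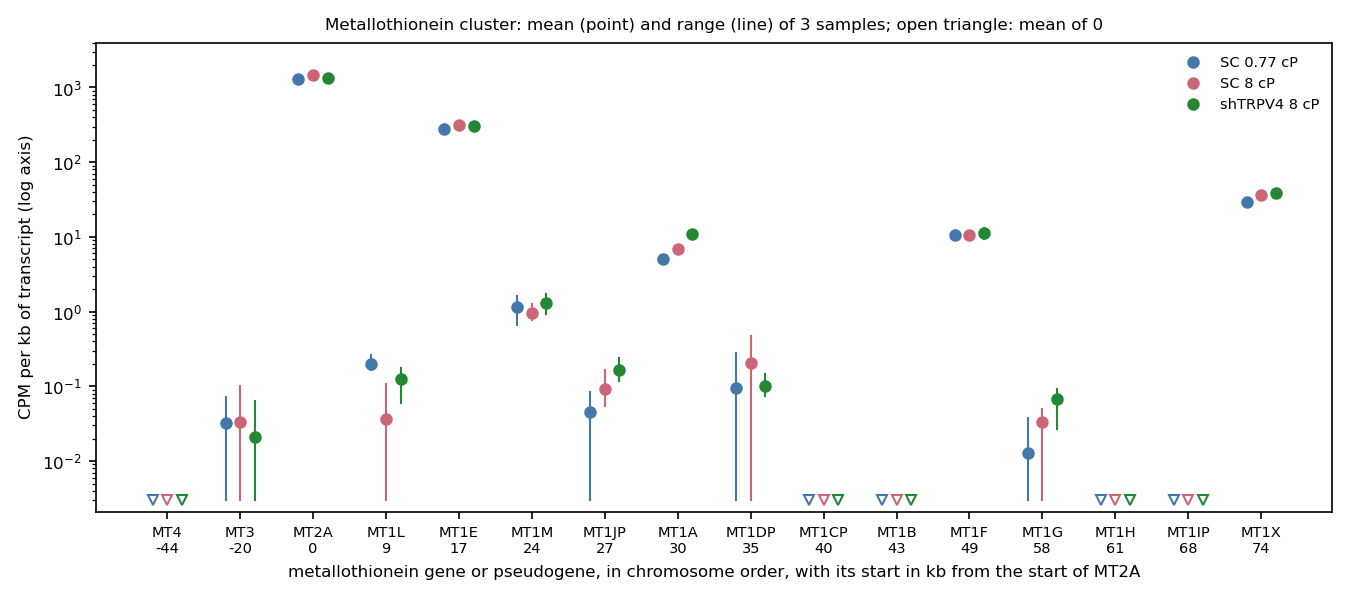
Metallothionein genes and pseudogenes of the chromosome 16 cluster in chromosome order, each with its start in kb from the start of MT2A (horizontal axis), against CPM per kb of transcript on a log axis, with the mean (point) and range (line) of 3 samples in each group and open triangles at the bottom for a mean of 0. In SC cells at 0.77 cP levels spanned from 1312.5 CPM per kb for MT2A to 0 for 5 genes, and MT1A rose from 5.11 in SC cells at 0.77 cP to 6.79 at 8 cP, and stood at 11.0 with the TRPV4 hairpin.

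Together the 6 metallothionein members took 749 ± 28.8 CPM in SC cells at 0.77 cP, 840 ± 23.2 at 8 cP and 781 ± 36.3 in shTRPV4 cells at 8 cP (SD, n = 3). The samples of SC cells at 8 cP (815 to 861 CPM) did not overlap those at 0.77 cP (724 to 781), and shTRPV4 samples (749 to 821) overlapped both. Of the counts of all metallothionein genes and pseudogenes looked up, MT2A and MT1E held 96.9%, 96.8% and 96.3% in the same order of groups, so the summed level follows these 2 genes.

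High viscosity in SC cells came with slightly higher MT2A, MT1E and MT1X, while MT1F, MT1M, MTF1 and SLC30A1 did not pass the test. The comparison asks what 6 days in viscous medium do to cells with a scramble hairpin. With 3 of the 7 tested members called, all higher, against 19.3% of the 18264 genes tested (9.57% higher and 9.69% lower), the calls were of small size, 1.11- to 1.23-fold. The median log2 fold change of the tested members was 0.0082, beside -0.0065 over all genes.

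MT2A, the most widely expressed metallothionein, had 509, 517 and 553 CPM in SC cells at 0.77 cP, 572, 591 and 589 at 8 cP, and 538, 504 and 563 in shTRPV4 cells at 8 cP. All SC samples at 8 cP were above all samples of the other groups, which overlapped each other. The log2 fold change with viscosity was 0.15 ± 0.049 (SE), with a Benjamini-Hochberg adjusted p of 0.0456 in the quasi-likelihood test of edgeR. This call is fragile. It was lost without SC replicate 1 (adjusted p = 0.153) or replicate 2 (0.127) at 0.77 cP, without replicate 1 (0.0635), 2 (0.103) or 3 (0.126) of SC cells at 8 cP, and with upper quartile scaling (0.0586), whereas the log2 fold change stayed between 0.13 and 0.20 over the 9 fits that left out 1 sample.

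MT1E, an isoform that lies near MT2A in the cluster, had 198, 206 and 212 CPM in SC cells at 0.77 cP, 224, 251 and 234 at 8 cP, and 215, 224 and 236 in shTRPV4 cells. Each sample at 8 cP, of either hairpin, was above each at 0.77 cP, and the hairpins overlapped at 8 cP. The log2 fold change with viscosity was 0.20 ± 0.051 (adjusted p = 0.0139, edgeR). It lost the call without SC replicate 1 at 0.77 cP (0.0691) or without replicate 2 at 8 cP (0.0626).

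MT1X, at the far end of the cluster, had 12.1, 13 and 10.9 CPM in SC cells at 0.77 cP, 13.7, 14.2 and 16.2 at 8 cP, and 15.9, 15.5 and 15.0 in shTRPV4 cells. Again all samples at 8 cP were above those at 0.77 cP. The rise with viscosity was 0.30 ± 0.079 in log2 (adjusted p = 0.0167, edgeR), and the call was lost without SC replicate 1 at 0.77 cP (0.0553) or replicate 3 at 8 cP (0.0872). Its exons share 321 bases on the same strand with an unnamed gene (ENSG00000259827).

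The lowly expressed isoforms gave no call in any comparison. MT1F had 4.26, 4.99 and 4.40 CPM in SC cells at 0.77 cP, 4.46, 4.66 and 4.57 at 8 cP, and 3.93, 4.80 and 5.63 in shTRPV4 cells, with adjusted p of 0.970 for viscosity, 0.732 for the hairpin and 0.637 for both together (edgeR). MT1M had 61, 17 and 47 counts, then 50, 32 and 28, then 34, 39 and 61 in the same order of groups, which overlapped throughout. Its log2 fold change with viscosity was -0.28 ± 0.34, with a 95% interval from -0.94 to 0.38. A moderate rise or fall was not detectable with these low counts and this spread between samples. MT1G, an isoform known to be silenced in several carcinomas, had 0, 1 and 0, then 2, 2 and 0, then 1, 3 and 3 counts, so it did not pass the filter and no difference was detectable at this depth.

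**Figure D2:**
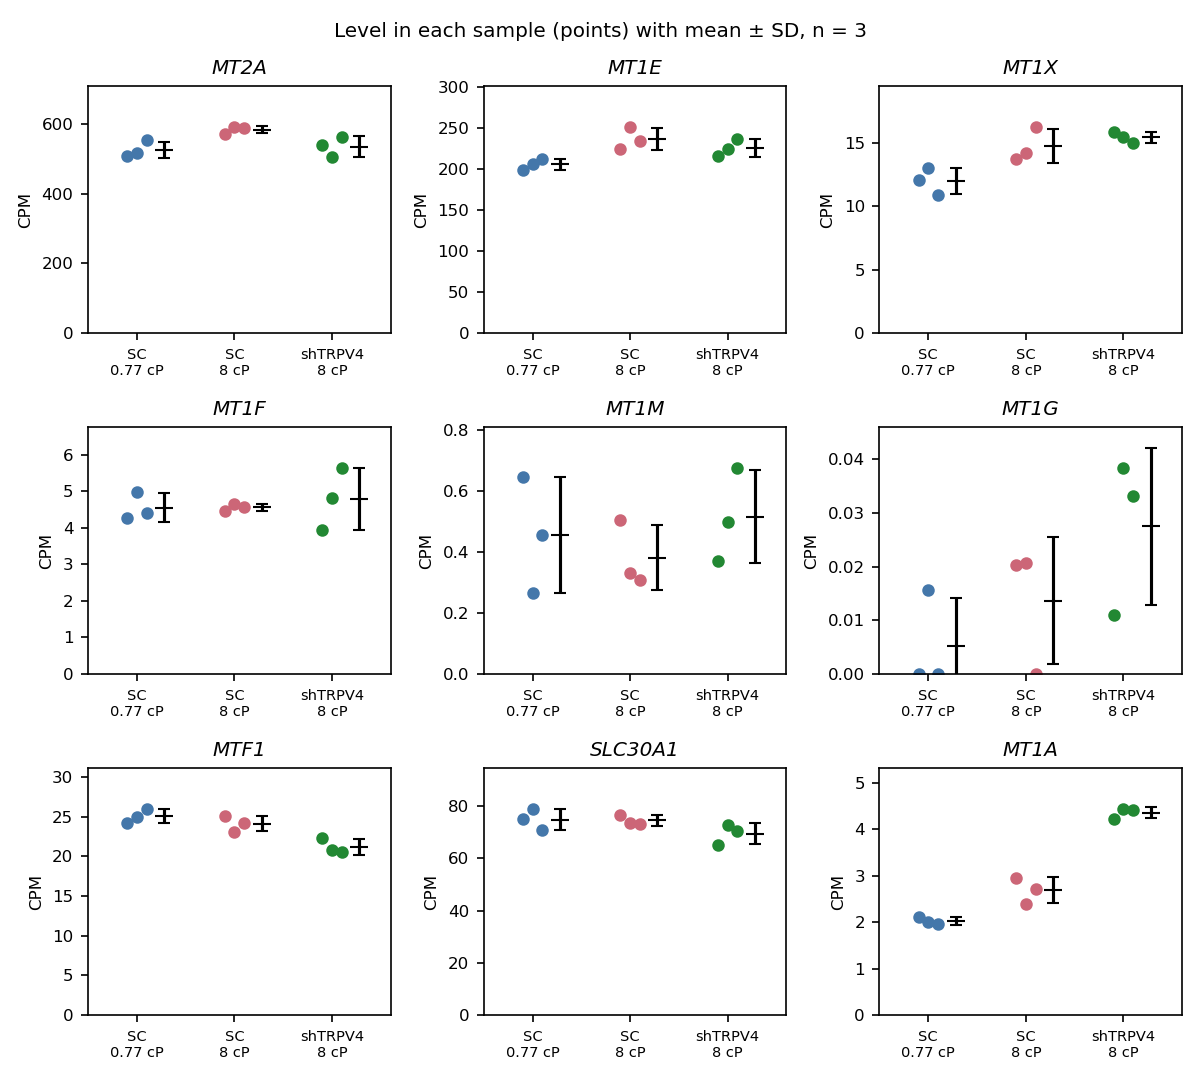
CPM of each member and of MT1A in every sample (vertical axis, from 0, with its own scale in each panel) for the 3 groups (horizontal axis), with points for samples and the bar for mean ± SD (n = 3). SC cells at 8 cP (572 to 591) lay above the other groups for MT2A, shTRPV4 cells (20.5 to 22.3) below the other groups for MTF1 and above them (4.22 to 4.43) for MT1A.

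The zinc sensor and the exporter did not pass the test with viscosity. MTF1 had 24.2, 25 and 25.9 CPM in SC cells at 0.77 cP and 25.1, 23.1 and 24.2 at 8 cP, which overlapped (log2 fold change -0.053 ± 0.057, adjusted p = 0.559, edgeR). SLC30A1 had 74.8, 78.8 and 70.7 CPM at 0.77 cP and 76.7, 73.5 and 73.2 at 8 cP, a log2 fold change of -0.0052 ± 0.053 (adjusted p = 0.959) with a 95% interval from -0.11 to 0.098. Whether these differ from the changes of the metallothioneins was not tested.

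With the hairpin at 8 cP, MTF1 was the only member called of the 7 tested. Its 22.3, 20.7 and 20.5 CPM in shTRPV4 cells lay below all SC samples. The log2 fold change was -0.19 ± 0.058 against SC cells at 8 cP (adjusted p = 0.0318, edgeR), or 12.2% lower. Of all genes tested, 20.0% were called in this comparison, 9.02% higher and 11.0% lower, so a single call among 7 genes is near that background. The MTF1 call did not hold without SC replicate 1 (adjusted p = 0.133) or 3 (0.0725) at 8 cP, without shTRPV4 replicate 2 (0.107) or 3 (0.0990), or without a filter on low counts (0.0524).

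MT2A in shTRPV4 cells lay below all SC samples at 8 cP, but the log2 fold change of -0.13 ± 0.049 did not pass (adjusted p = 0.0870, edgeR) except without shTRPV4 replicate 3 (0.0399). SLC30A1, at 65.0, 72.7 and 70.5 CPM in shTRPV4 cells, was also below every SC sample at 8 cP, with a log2 fold change of -0.10 ± 0.053 (adjusted p = 0.197). MT1E (-0.068 ± 0.051, adjusted p = 0.395) and MT1X (0.068 ± 0.078, adjusted p = 0.602) overlapped between hairpins. The median of the tested members was -0.068, beside 6.45e-04 over all genes.

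Against SC cells at 0.77 cP, shTRPV4 cells at 8 cP had higher MT1X and MT1E and lower MTF1, which are 3 calls of 7 where 42.4% of all genes were called (20.4% higher and 22.0% lower). MT1X rose by 0.37 ± 0.079 in log2 (adjusted p = 0.00159, edgeR) and MTF1 fell by 0.24 ± 0.058 on the log2 scale (adjusted p = 0.00333), and each kept its call in all 9 fits without 1 sample. MT1E rose by 0.13 ± 0.051 (adjusted p = 0.0477). Its call was lost without SC replicate 1 (0.148) or 2 (0.0850) at 0.77 cP, without shTRPV4 replicate 2 (0.0953) or 3 (0.177), with upper quartile scaling (0.0805) and in a fit of the 6 samples compared (0.0514). MT2A was not called (0.024 ± 0.049, adjusted p = 0.740), nor was SLC30A1 (-0.11 ± 0.053, adjusted p = 0.117), and the median of the tested members was 0.077 beside -0.011 over all genes.

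**Figure D3:**
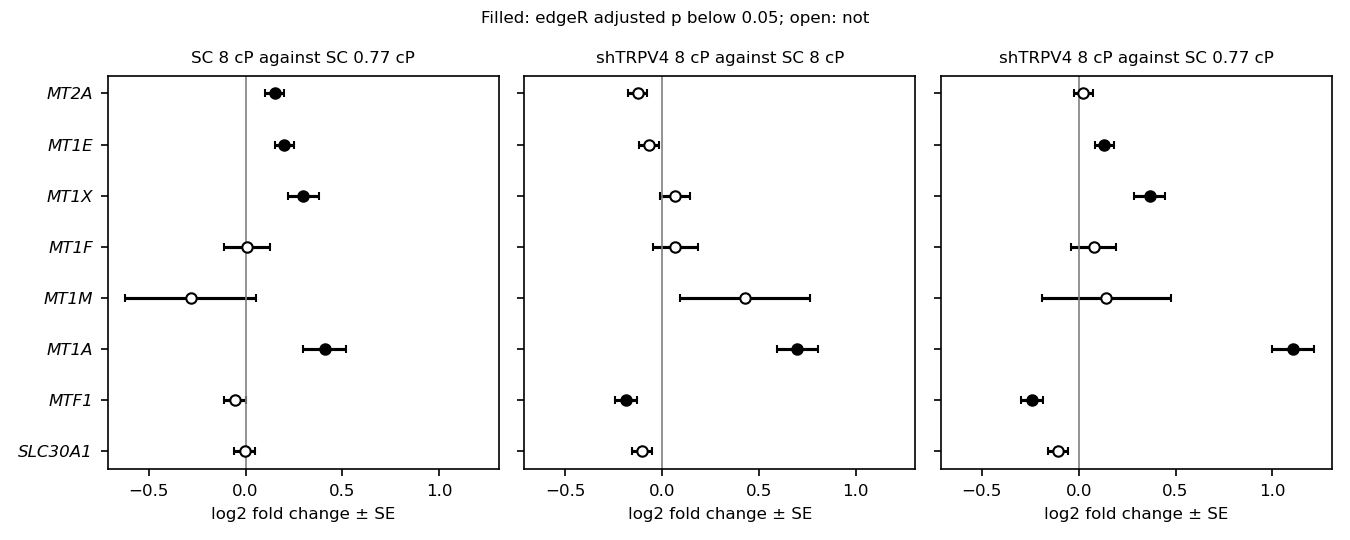
log2 fold change (horizontal axis, with its SE as the bar) of each tested member and of MT1A in the 3 comparisons, with filled points for an adjusted p below 0.05 in edgeR's quasi-likelihood test. MT2A, MT1E and MT1X were filled and right of 0 with viscosity, MTF1 was filled and left of 0 in both comparisons of shTRPV4 cells, and MT1A reached 1.11 against SC cells at 0.77 cP.

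Of the 15 other metallothionein genes and pseudogenes, 2 passed the filter, MT1A and MT2P1. MT1A, a functional isoform between MT1M and MT1F in the cluster (chromosome 16, 56638666 to 56640087, plus strand), had 199, 128 and 202 counts in SC cells at 0.77 cP, 292, 231 and 247 at 8 cP, and 387, 347 and 400 in shTRPV4 cells. Scaled for depth these were 2.11, 2.0 and 1.96 CPM, then 2.95, 2.39 and 2.72, then 4.22, 4.43 and 4.42. The groups did not overlap, and the level was lowest in SC cells at 0.77 cP and highest in shTRPV4 cells. Its log2 fold change was 0.41 ± 0.11 with viscosity (adjusted p = 0.0193, edgeR), 0.70 ± 0.11 with the hairpin at 8 cP (adjusted p = 2.90e-04) and 1.11 ± 0.11 with both (adjusted p = 1.64e-06). The calls with the hairpin and with both held in all 9 fits without 1 sample (0.62 to 0.77 and 1.09 to 1.14). The call with viscosity was lost without SC replicate 2 at 0.77 cP (adjusted p = 0.0547) or without SC replicate 1 (0.0754) or 3 (0.0650) at 8 cP. The ratio of MT1E to MT1A in CPM was 102 ± 7.19 in SC cells at 0.77 cP, 88.9 ± 14.7 at 8 cP and 51.7 ± 1.52 in shTRPV4 cells, and the shTRPV4 samples (50.6 to 53.4) lay below all SC samples (75.9 to 108).

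MT2P1, a processed pseudogene on chromosome 4 (68376323 to 68376505, plus strand), differed from the MT2A transcript at 5 of 183 bases. Its 282, 303 and 365 counts in shTRPV4 cells were not all below the 498, 479 and 359 of SC cells at 8 cP, and the log2 fold change was -0.35 ± 0.12 (adjusted p = 0.0531, edgeR). It passed with DESeq2 (0.0357), without a filter (0.0274), without SC replicate 3 at 8 cP (0.0188) and without shTRPV4 replicate 3 (0.0383). The pseudogene had about 1 count for each 132 of MT2A in SC cells at 0.77 cP, and reads of the parent placed on it cannot be told apart from its own. Among the family, stretches of 100 bases within 2 mismatches of another family transcript made up 18.5% of MT2A, 13.4% of MT1X, 6.11% of MT1G and 3.86% of MT1E, and 0% of MT1F, MT1M and MT1A. No stretch of that length was an exact copy, though how reads that map to several genes were counted is not given in the sources used here, so small shifts between these genes are uncertain. MT1B, MT1H, MT1HL1, MT4, MT1CP and MT1IP had 0 counts in all 9 samples, and the other 7 had at most 9 in any sample.

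Of the transporters other than SLC30A1, 2, 1 and 4 of 7 ZnT genes and 3, 3 and 5 of 12 ZIP genes were called with viscosity, with the hairpin and with both, beside 19.3%, 20.0% and 42.4% of all genes. Of 7 tested ZnT genes, most of which move zinc out of the cytosol, 2 rose with viscosity, SLC30A6 by 0.20 ± 0.056 (adjusted p = 0.0234, edgeR) and SLC30A5 by 0.17 ± 0.054 (0.0396), both genes of the secretory pathway. With the hairpin 1 fell, the mitochondrial SLC30A9 (-0.16 ± 0.047, adjusted p = 0.0223). With both, 3 rose, among them SLC30A5 (0.25) and SLC30A7 (0.31), and 1 fell, the manganese exporter SLC30A10 (-0.43). Of 12 tested ZIP genes, which bring metal into the cytosol, 2 rose with viscosity, SLC39A14 and SLC39A8, and 1 fell, SLC39A11. SLC39A14, an importer of zinc, iron and manganese, rose by 0.20 ± 0.062 with viscosity (adjusted p = 0.0347), by 0.37 ± 0.062 with the hairpin (5.75e-04) and by 0.58 ± 0.062 with both (3.82e-06). SLC39A8, which takes up zinc, cadmium and manganese, rose by 0.18 ± 0.051 with viscosity (0.0214), fell by 0.19 ± 0.051 on the log2 scale with the hairpin (0.0182) and was at -0.0028 with both (0.973). With the hairpin SLC39A13, of the secretory pathway, also fell (-0.14 ± 0.040, 0.0213), and with both 4 ZIP genes rose and 1 fell.

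**Figure D4:**
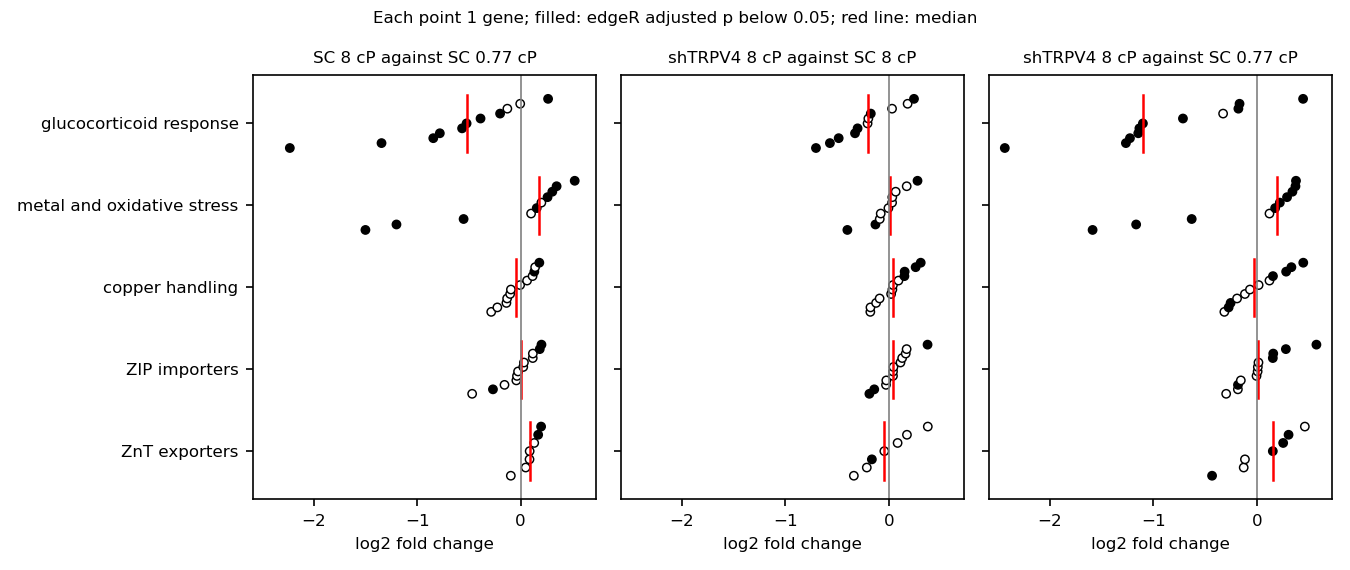
log2 fold change (horizontal axis) of each tested gene in 5 lists of related genes (vertical axis) in the 3 comparisons, with filled points for an adjusted p below 0.05 in edgeR's quasi-likelihood test and a red line at the median of the list. The glucocorticoid list lay mostly left of 0, with medians of -0.52, -0.20 and -1.10 from the left panel to the right, while medians of both zinc transporter lists and of the copper list lay between -0.050 and 0.15.

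Of the copper handling genes, 2, 4 and 6 of 12 tested were called with viscosity, with the hairpin and with both, beside 19.3%, 20.0% and 42.4% of all genes. With viscosity 2 rose with viscosity, ATOX1 (0.18 ± 0.046, adjusted p = 0.0138, edgeR), a copper chaperone, and SCO1 (0.13 ± 0.044, 0.0491), a copper carrier for cytochrome oxidase. With the hairpin 4 rose, led by the copper importer SLC31A1 (0.31 ± 0.048, adjusted p = 3.83e-04) and the metalloreductase STEAP3 (0.26 ± 0.049, 0.00171), followed by SCO1 and ATOX1. With both, 4 rose, among them SLC31A1 (0.45), ATOX1 (0.33) and SCO1 (0.28), and 2 fell.

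Genes of the metal and oxidative stress response split by kind with viscosity in SC cells. Called were 8, 3 and 9 of 10 tested with viscosity, with the hairpin and with both, beside 19.3%, 20.0% and 42.4% of all genes. In all, 3 fell in SC cells with viscosity, and these are heat shock genes, HSPA1A (-1.50 ± 0.17, adjusted p = 4.42e-05, edgeR), HSPA1B (-1.20 ± 0.14, 4.80e-05) and DNAJB1 (-0.55 ± 0.053, 5.82e-06). HSPA1A and HSPA1B are nearly identical copies, so their split is uncertain. HSPA1A ranged from 59.1 to 111 CPM in SC cells at 0.77 cP. Its log2 fold change with viscosity ranged from -1.65 to -1.12 over the 9 fits without 1 sample, and its call held in each. The 5 that rose were SLC7A11 (0.52), GCLM (0.35), NQO1 (0.31), GCLC (0.26) and TXNRD1 (0.16), which serve cystine uptake, glutathione synthesis, quinone reduction and thioredoxin reduction. With the hairpin, HMOX1, the heme oxygenase, rose by 0.28 ± 0.058 (adjusted p = 0.00340), and SLC7A11 (-0.40 ± 0.089, 0.00504) and NQO1 (-0.13 ± 0.041, 0.0370) fell. With both, 6 rose and the same 3 heat shock genes fell.

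Of 11 tested glucocorticoid response genes, 8 fell and 1 rose with viscosity, against 9.69% and 9.57% of all genes. DUSP1 fell by 2.23 ± 0.092 on the log2 scale (adjusted p = 1.81e-10, edgeR), SGK1 by 1.34 ± 0.064 (1.21e-09) and PER1 by 0.84 ± 0.080 (4.65e-06). These genes also respond to serum and other acute stimuli. FKBP5 was the gene that rose (0.26 ± 0.072, 0.0195). With the hairpin 6 fell, led by KLF9 (-0.70 ± 0.095, 1.04e-04), ERRFI1 (-0.33 ± 0.053, 4.91e-04) and TSC22D3 (-0.57 ± 0.11, 0.00195), and SGK1 rose (0.24 ± 0.065, 0.0149). Of all genes, 11.0% were lower and 9.02% higher with the hairpin. With both 9 fell and 1 rose, beside 22.0% lower and 20.4% higher of all genes. These lists were written with earlier results of these data known, and FKBP5, GCLM, GCLC, TXNRD1 and SGK1 with the hairpin are named after their values were seen.

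Among genes outside the family with a mean of at least 10 CPM, those whose log2 CPM followed MT2A most closely over the 9 samples were EXT2 (Pearson r = 0.955), RABL6 (0.933), PSMC3 (0.921) and EIF3I (0.919). For MT1X they were CNOT6L (0.985), GOPC (0.963), ANKRD26 (0.955), LANCL1 (0.950) and CLCC1 (0.947), and for SLC30A1 they were TGFBR1 (0.961), HNRNPLL (0.942), EDIL3 (0.940), VAPA (0.937) and ATP5PO (0.935). These are the highest of about 9450 genes compared with each, over samples that share their groups, and are given as descriptions.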

How the data were processed

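RNA of 9 samples, 3 in each of 3 groups given by the sample titles, was analysed from the raw gene counts that the authors deposited. The authors made stranded poly(A) libraries, aligned 100 bp read pairs to GRCh38.p13 with HISAT2 2.2.1 and counted reads on Ensembl genes with HTSeq 0.13.5 (versions from the submitters' processing notes), without normalization. Whether strand was used in counting, and how reads mapping to several genes were treated, is not given in the sources used here. Symbols and positions came from GENCODE on GRCh38, with 60463 of 60664 genes matched to a symbol, and promoter windows from RefSeq (GRCh38.p14).

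Counts were fitted in edgeR 4.0.16 (R 4.3.3) with TMM scaling, filterByExpr, 1 coefficient per group and a quasi-likelihood test over all 9 samples. p-values were adjusted by Benjamini-Hochberg over all 18264 genes tested and called below 0.05. CPM are scaled by TMM. Per-length levels divide CPM by the length of the annotated main transcript or of all exons. log2 CPM for the likeness of genes used a prior count of 2. The fit was tested on simulated data with log2 changes larger than those called for the members, so changes of the members' size were not covered. Alternatives were DESeq2 1.42.0, upper quartile scaling, no filter, a minimum of 10 counts in each sample, a fit of the 6 samples compared alone, a replicate block and leaving out each sample. For genes other than the members these alternatives were added after seeing the data.

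The members and lists were chosen with earlier results of these data known. Genes named are the 8 members, other metallothioneins that passed the filter, TRPV4, up to 3 called genes with the smallest adjusted p per list and comparison, and the 5 genes most like MT2A, MT1X and SLC30A1, of which 1 for MT2A, like 1 leukocyte marker, is not reported here. A single gene compared by exact permutation of 3 against 3 samples cannot go below p = 0.1, so none was run. With this many counts the spread between samples, a common biological coefficient of variation of 0.0633, sets the precision of abundant genes. MT1G is limited by its few counts. MT1M is limited by low counts and by a wide spread between samples, from 0.265 to 0.647 CPM in SC cells at 0.77 cP.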

Additional observations from a re-analysis of the deposited data

How the results depend on the processing

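The 3 calls with viscosity and the 3 with hairpin and viscosity together were also made by DESeq2, and by edgeR without a filter, with at least 10 counts in every sample and with the replicate block. Without a filter on low counts, 0 members were called with the hairpin at 8 cP (MTF1, adjusted p = 0.0524), while DESeq2 and edgeR's other settings over all samples called MTF1. When 1 sample was left out, where the group that lost it was fitted with the spread pooled over groups, 0 to 3 members were called with viscosity (0 without SC replicate 1 at 0.77 cP, 1 without SC replicate 2 or 3 at 8 cP), 0 to 1 with the hairpin (0 without SC replicate 1 or 3 at 8 cP, or without shTRPV4 replicate 2) and 2 to 3 with both. Genes called of all tested then ranged from 1409 to 4349 with viscosity (1409 without SC replicate 1 and 1927 without replicate 2 at 0.77 cP, 1418 without SC replicate 3 at 8 cP), from 2179 to 3836 with the hairpin (2361 without SC replicate 1 and 2179 without replicate 2 at 8 cP) and from 6318 to 7705 with both, and the other alternatives stayed within 1.5 times the counts given. Without shTRPV4 replicate 3, the 1 member called with the hairpin was MT2A and not MTF1. Fold changes that turned sign when a sample was left out were never called. With viscosity these were MT1F (-0.030 to 0.081), MT1M (-0.53 to 0.050), SLC30A1 (-0.034 to 0.041) and TRPV4 (-0.33 to 0.27), with the hairpin MT1F (-0.067 to 0.19), and with both MT1F (-0.057 to 0.20), MT1M (-0.10 to 0.48) and MT2A (-0.014 to 0.069), and upper quartile scaling put MT1F at -0.0016 with viscosity. The causes were not tested.

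The replicate numbers did not pair the samples: deviations of samples of 1 number correlated at -0.055 to 0.090 between groups, and 2 of 9 samples correlated best with their own number. With the number as a replicate block, 3475, 3607 and 7731 genes were called with viscosity, with the hairpin and with both, and no call of a member changed, while SLC39A14 (adjusted p = 0.0509) and SCO1 (0.0598) lost theirs with viscosity. Of the other genes named, those that lost a call in some fits without 1 sample were, with viscosity, ATOX1 (3 of 9 fits, adjusted p up to 0.0664), SCO1 (7, 0.143), FKBP5 (3, 0.0943), TXNRD1 (6, 0.137), SLC30A5 (4, 0.163), SLC30A6 (2, 0.13), SLC39A8 (3, 0.105), SLC39A11 (3, 0.0687) and SLC39A14 (4, 0.156), with the hairpin ATOX1 (5, 0.113), SGK1 (3, 0.0722), SCO1 (4, 0.112), SLC30A9 (3, 0.0984), SLC39A8 (3, 0.0853), SLC39A13 (5, 0.0802) and NQO1 (5, 0.153), and with both SLC30A10 (3, 0.126). Depth limits MT1G, in which a difference was not detectable, and low counts with a wide spread between samples limit MT1M.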
